A study of Mus musculus with 12 samples.

Results

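The cytoplasmic miRNA of mouse bone marrow cells was followed over 4 stages of granulopoiesis, from LSK cells through promyelocytes and myelocytes to granulocytes, by TLDA RT-qPCR, with 1 array well for each miRNA. A well gives a CT, the number of cycles its product needs to reach a set threshold. The more template there is, the lower the CT, and where every cycle doubles the product, 1 cycle equals 2-fold. Of 593 assays on cards A and B, 270 could be given a miRNA name, and 128 of these had a CT under 30 in at least 1 of the 4 cytoplasmic samples. These 128 miRNAs, 92 assigned to card A and 36 to card B, are described here. The card of an assay is not labelled and was inferred, as given under the processing. In all, 148 assays met the CT limit, and the 20 that could not be named are not described. The members nearest to the limit were miR-99b with a lowest CT of 29.99, miR-26b* with 29.78 and miR-532-3p with 29.78, and the nearest named assays outside it were miR-185 with 30.12, miR-467c with 30.13 and miR-324-3p with 30.15.

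All samples came from bone marrow of C57BL/6 mice and the labels name no mutant allele or treatment. LSK cells lack lineage markers and carry Sca1 and cKit (Lin-Sca1+cKit+), a gate that holds stem cells together with early progenitors. Promyelocytes, myelocytes and granulocytes were sorted on surface markers of granulocytic maturation, so a stage is the content of a sort gate and not a pure morphological class. Mouse ages, and the number of mice behind an RNA sample, are not given in the sources used here. Nucleus and cytoplasm were separated with a commercial kit before the RNA was extracted, and the labels give 100 ng of RNA for the reverse transcription. There was 1 cytoplasmic sample per stage and 1 well per assay, so replicate error could not be estimated, no test between stages was possible, and a change of 2-fold or more was used as the limit for calling a miRNA higher or lower. The study also presents its cytoplasmic and nuclear readings by cell equivalents, and which basis the deposited CT values have could not be settled. Changes in miRNA per cell and in the total RNA of a cell therefore cannot be told apart, and neither can fewer cells of a type in a gate and less RNA per cell.

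A miRNA is cut as a short duplex from a hairpin precursor, and the strand that stays in the Argonaute protein guides it to messenger RNAs. Target choice rests mainly on the seed, bases 2 to 8 of the mature strand, so miRNAs with the same seed form a family with overlapping targets, and a name with an asterisk marks the less abundant strand of a hairpin. In granulopoiesis, miR-223 is the best known member, induced by myeloid transcription factors and a regulator of neutrophil numbers and function, while miR-125, miR-126, miR-155 and the Hox-embedded miR-10 and miR-196 are known from stem and progenitor cells.

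The mature sequences of 106 of the 128 miRNAs were found in RefSeq (GRCm38.p6, mouse), and those that carry the stage patterns are shown 5′ to 3′ with the seed in capitals. The first group was highest in LSK cells, and miR-125a-5p and miR-125b-5p share a seed.
miR-125a-5p: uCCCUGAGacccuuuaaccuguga
miR-125b-5p: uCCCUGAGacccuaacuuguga
miR-126-3p: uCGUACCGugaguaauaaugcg
miR-196b: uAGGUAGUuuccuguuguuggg
miR-155: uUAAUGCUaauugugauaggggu
miR-99b: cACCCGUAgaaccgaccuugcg
miR-203: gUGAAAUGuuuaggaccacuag
miR-224: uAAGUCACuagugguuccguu
miR-146a: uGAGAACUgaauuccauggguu

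The second group was lowest in LSK cells or promyelocytes and highest in myelocytes or granulocytes, and none of these shares its seed with another member matched to RefSeq.
miR-223: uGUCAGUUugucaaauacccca
miR-139-5p: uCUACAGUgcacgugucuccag
miR-139-3p: uGGAGACGcggcccuguuggag
miR-135a: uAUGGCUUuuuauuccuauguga
miR-22: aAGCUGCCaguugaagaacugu
miR-200c: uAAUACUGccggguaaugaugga
miR-192: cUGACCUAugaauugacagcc
miR-194: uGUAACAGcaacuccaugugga
miR-340-5p: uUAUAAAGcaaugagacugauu
miR-340-3p: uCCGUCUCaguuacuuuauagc

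The third group shows seed families, first 5 miRNAs with the seed of miR-15, then 6 with that of miR-17, 3 with that of miR-130 and the pair miR-27a and miR-27b.
miR-15a: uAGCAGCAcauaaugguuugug
miR-15b: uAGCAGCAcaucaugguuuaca
miR-16: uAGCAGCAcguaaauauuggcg
miR-195: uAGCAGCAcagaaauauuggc
miR-322: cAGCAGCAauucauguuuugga
miR-17: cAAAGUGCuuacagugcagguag
miR-106a: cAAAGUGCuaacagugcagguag
miR-20a: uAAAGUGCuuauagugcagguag
miR-20b: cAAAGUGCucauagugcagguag
miR-93: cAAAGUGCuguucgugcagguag
miR-106b: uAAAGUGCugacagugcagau
miR-130a: cAGUGCAAuguuaaaagggcau
miR-130b: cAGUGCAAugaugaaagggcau
miR-301a: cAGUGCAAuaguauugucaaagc
miR-27a: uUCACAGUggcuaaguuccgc
miR-27b: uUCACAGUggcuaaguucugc

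CT values are given below in the order LSK, promyelocytes, myelocytes and granulocytes. Between 263 and 294 assays were under 40 per cytoplasmic sample, and between 87 members in promyelocytes and 106 in LSK cells were under 30. The mean CT of the 76 members under 30 in all 4 samples was 25.6, 26.7, 25.7 and 25.6, so the promyelocyte sample read about 1 cycle later than the others, and a scaled level is this mean minus the CT of the assay. The delay of promyelocytes against LSK cells was 1.43 cycles over the 58 of these assays on card A and 0.33 cycles over the 18 on card B. The card is therefore named beside results where it matters, and its part in them was not tested. In whole cell RNA, where the same mean was 26.7, 26.1, 25.6 and 25.2, promyelocytes were not the latest sample. An error in the promyelocyte sample would enter the first and second step with opposite signs, since the consecutive steps share that sample. In each step the members compared were those under 30 in either stage, and a change is the later minus the earlier scaled level on the log2 scale. The mean used for scaling moved by 1.17, -1.06 and -0.05 cycles over the 3 steps, and that of the last 3 assays of card B by 1.85, -1.68 and -1.59, so changes smaller than these gaps can turn their sign with the constant.

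**Figure D1:**
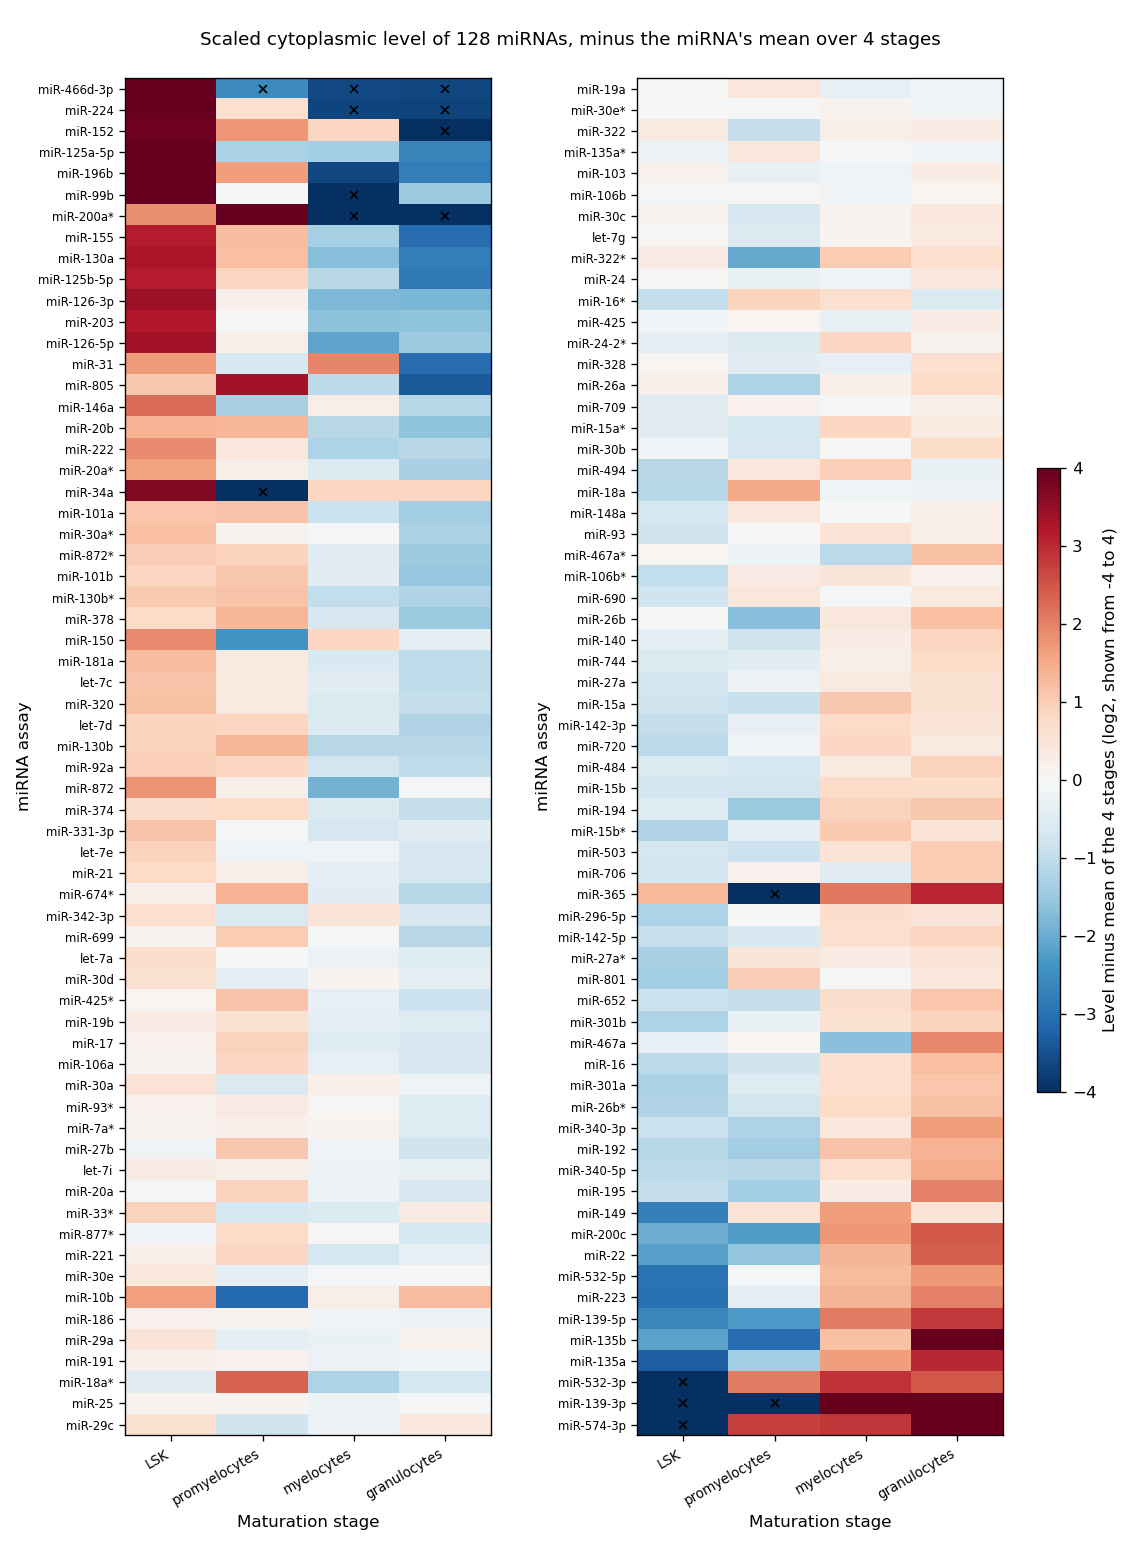
Scaled cytoplasmic level of each of the 128 miRNAs (rows) in the 4 stages (columns), as the difference from the miRNA's own mean over the stages on the log2 scale, colours ending at -4 and 4, rows sorted by the change from LSK cells to granulocytes and crosses marking wells listed at 40. The left panel runs from miR-466d-3p, which was read only in LSK cells, and the right panel ends with miR-139-3p and miR-574-3p.

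Of the 118 members with a CT under 40 in every sample, 100 spanned 2-fold or more between their highest and lowest stage, and the median span was 1.99 on the log2 scale. A span is the range of 4 single wells, and how much of it is well error is not known. The scaled level was highest in LSK cells for 43 miRNAs, in promyelocytes for 28, in myelocytes for 17 and in granulocytes for 40. The highest stage stood 2-fold or more above the next for 21 of the 43 miRNAs highest in LSK cells, 7 of the 28, 1 of the 17 and 8 of the 40. Of those 21, 7, 1 and 8 miRNAs, 11, 2, 0 and 1 were under 30 in 1 sample alone and so became members through the well in which they were high, which helps to set these counts. The number highest in promyelocytes turned on the constant, with 6 without scaling, 43 with the median CT and 54 with the last 3 assays of card B, and with those last 3 assays the number highest in granulocytes was 2. Of the 28 miRNAs highest in promyelocytes, 17 were on card B, against 5 of the 43 highest in LSK cells and 6 of the 40 highest in granulocytes. The level rose at each of the 3 steps, by any amount, for 13 miRNAs and fell at each for 22.

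Among the 118 members under 40 in every sample, 9 of the 10 widest spans belonged to miRNAs highest in LSK cells or in granulocytes. The scaled level of miR-196b spanned 8.40 on the log2 scale, that of miR-125a-5p 7.94, and those of miR-155, miR-130a, miR-125b-5p and miR-126-5p between 5.46 and 6.20, all highest in LSK cells. In the opposite direction miR-135b spanned 7.05, miR-135a 6.31 and miR-139-5p 5.45, all highest in granulocytes. The remaining wide span was that of miR-805, an entry later removed from miRBase, with 6.71 and its highest level in promyelocytes.

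From LSK cells to promyelocytes 111 members were compared, and the miRNAs of stem and progenitor cells fell. In this step 31 miRNAs were lower and 16 higher by 2-fold or more, beside 26.9% lower and 13.8% higher of all 130 assays under 30 in either stage, named or not. The members make up most of those assays, so their shares, close to the background, describe the step and not a property of the named miRNAs. The median change was -0.09, with quartiles of -1.17 and 0.68. With a CT under 30 asked of both stages, 13 were lower and 11 higher of 82, so the excess of falls rests largely on miRNAs under 30 in LSK cells and not in promyelocytes, of which 24 were compared beside 5 the other way round. The balance of the calls also depends on the constant subtracted: without any scaling 71 were lower and 9 higher, with the median CT in place of the mean 23 were lower and 32 higher, and with the mean of the last 3 assays of card B 18 were lower and 35 higher. Under all 5 constants tried, 18 miRNAs were lower and 9 higher, and of these 16 and 5 also changed by 2-fold or more in the same direction in whole cell RNA. By this count, every other call of the step lost 2-fold under at least 1 constant, and the same holds for the later steps. The constant does not change which members were compared. Of the 18 falls, only miR-126-3p, miR-126-5p, miR-146a, miR-150, miR-155 and miR-196b were under 30 in both stages. The others were compared through the LSK well alone, which favours a fall. Of the 9 rises, miR-532-5p, miR-574-3p, miR-18a* and miR-200a* were compared through the promyelocyte well alone, which favours a rise.

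All 10 named members of the stem and progenitor list were lower in promyelocytes than in LSK cells, with a median change of -3.10 beside -0.09 over all members compared, and 9 of them, all but let-7e, were past 2-fold under all 5 constants. For 5 of the 10, namely miR-125a-5p, miR-125b-5p, miR-99b, miR-130a and miR-10b, the LSK well alone was under 30, which favours a fall, so the count of 10 is a description. The other 5, under 30 in both stages, had a median change of -3.07. The CT of miR-125a-5p, which with miR-125b-5p enlarges the stem cell pool when raised, was 27.2, 34.9, 34.0 and 35.2. It was well read in LSK cells alone and fell by 6.54 on the log2 scale. The CT of miR-125b-5p was 27.0, 30.4, 31.3 and 33.0, and it fell by 2.27 in this step. Its later changes, -1.98 and -1.74, were read from wells over 30 and are not counted. The CT of miR-99b, whose gene lies with those of let-7e and miR-125a at chr17:17830194-17830840 (GRCm38.p6, plus strand), was 29.99, 36.8, 40 and 37.2. It fell by 5.65, while let-7e of the same gene cluster, with CT values of 24.3, 26.5, 25.5 and 26.0, fell by 1.04.

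The 2 arms of miR-126, a miRNA of endothelium and stem cells that limits stem cell cycling, fell alike. The CT of miR-126-3p was 23.1, 27.5, 28.4 and 28.4 and that of miR-126-5p 24.8, 29.1, 30.4 and 29.6, with falls of 3.2 and 3.13. Both were still under 30 in granulocytes. The CT of miR-196b, encoded in the Hoxa cluster, was 25.1, 29.4, 33.7 and 32.7, with changes of -3.07 and, into myelocytes, -5.33. The CT of miR-155, a regulator of inflammation and of the stem cell pool, was 24.9, 27.99, 29.5 and 31.2, and it fell at every step, by 1.9, 2.56 and 1.74. The CT of miR-130a was 27.6, 30.8, 32.7 and 33.7, a fall of 2.06 in the first step and over 30 from there on. miR-10b, encoded in the Hoxd cluster, behaved otherwise: its CT was 28.2, 34.2, 29.8 and 28.7, so it fell by 4.76 into promyelocytes and rose by 3.33 out of them, and its granulocyte level was within 1 cycle of that in LSK cells.

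**Figure D2:**
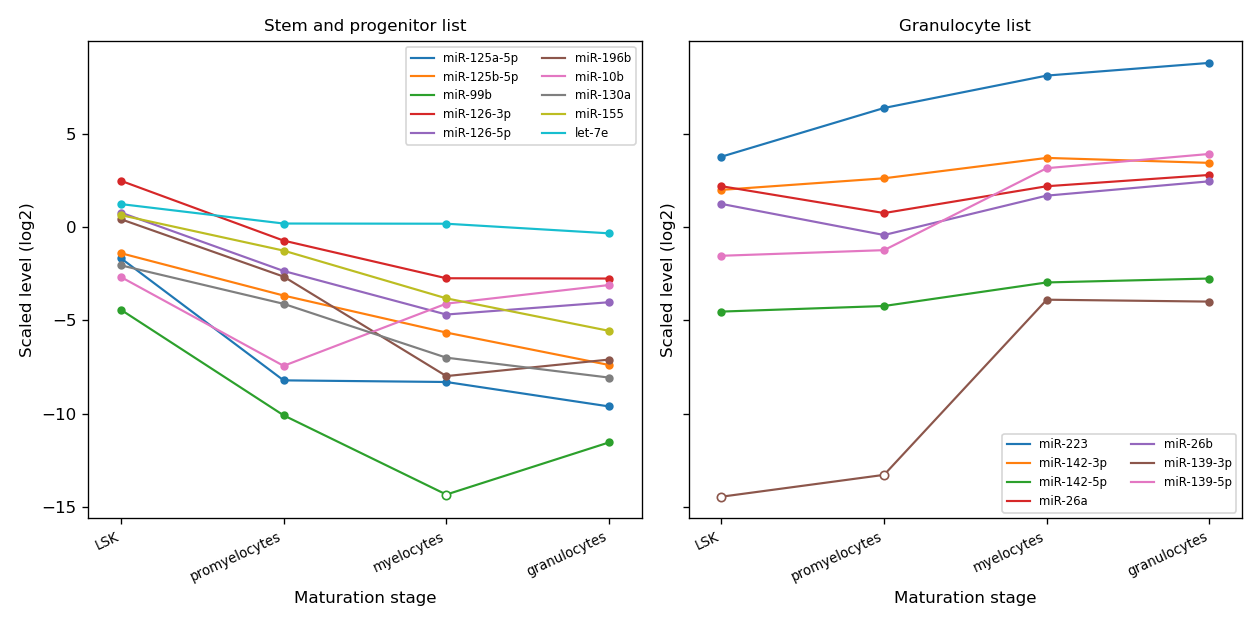
Scaled cytoplasmic level (log2) against stage for the 10 stem and progenitor miRNAs (left) and the 7 granulocyte miRNAs (right), 1 sample per stage, open circles marking wells listed at 40. All 10 lines on the left fall into promyelocytes and miR-10b alone returns near its LSK level, while all 7 lines on the right rise from promyelocytes to myelocytes.

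Several other miRNAs fell sharply between LSK cells and promyelocytes. The CT of miR-224 was 29.5, 36.7, 40 and 40, that of miR-203 26.0, 30.3, 31.0 and 30.9 and that of miR-222 21.8, 24.4, 25 and 24.8. The first and the second were under 30 in LSK cells alone, while miR-222 stayed well read and fell again into myelocytes. Both miR-146a, which damps NF-kB signalling through Traf6 and Irak1, and miR-150, which targets Myb and is abundant in mature lymphocytes, dipped in promyelocytes. The CT of miR-146a was 23.8, 28.5, 25.9 and 27.2, a fall of 3.57 and then a rise of 1.59. The CT of miR-150 was 24.1, 29.6, 25.3 and 26.5, a fall of 4.29 and then a rise of 3.23. Such a dip of 2-fold or more on both sides was seen for 9 miRNAs, the others being miR-10b, miR-26a, miR-26b, miR-31, miR-322, miR-322* and miR-342-3p. Of these, miR-10b, miR-150, miR-31 and miR-322* alone did so under all 5 constants. Among them miR-150 alone was under 30 in promyelocytes, and a well over 30 there favours a dip. In whole cell RNA the changes into promyelocytes were -2.62 for miR-146a, -4.23 for miR-150 and -4.29 for miR-31, but -0.77 for miR-322, -0.85 for miR-26a and -0.43 for miR-26b.

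Among the miRNAs that rose into promyelocytes, miR-223 went on rising. The CT of miR-223 was 21.8, 20.3, 17.6 and 16.8, so that it was read earlier at every stage and was the lowest CT of all members from promyelocytes on. Its scaled level rose by 2.61 and 1.74 and changed by 0.68 in the last step, in all 5.02 on the log2 scale. The CT of miR-149 on card B was 28.4, 26.3, 24.1 and 25.3, with a rise of 3.27 and one of 1.12 before a fall of 1.16. The CT of miR-532-5p, from a miRNA cluster in an intron of Clcn5, was 31.4, 29.7, 27.3 and 26.8, with rises of 2.92 and 1.31, the first of which was not seen in whole cells. These 3 were the members that rose by 2-fold or more at both of the first steps, and miR-223 alone did so under all 5 constants.

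A second set rose into promyelocytes and fell out of them. The CT of miR-18a, of the miR-17-92 cluster of proliferating cells, was 29.2, 27.7, 28.3 and 28.3, a rise of 2.65 and a fall of 1.70. Its opposite strand miR-18a* on card B, with CT values of 30.9, 29.3, 31.8 and 31.2, rose by 2.78 and fell by 3.58. Such a turn past 2-fold on both sides was seen for 8 miRNAs, the others being miR-27b, miR-200a*, miR-425*, miR-674*, miR-801 and miR-805. Under all 5 constants miR-18a*, miR-200a* and miR-805 alone did so. Of these, miR-18a* and miR-200a* were under 30 in promyelocytes alone, which favours such a turn. Unscaled, the changes were 0.06 and -0.15 for miR-27b, -0.13 and -0.41 for miR-425* and 0.01 and -0.77 for miR-674*, and the fall of miR-801 became 0.04. The CT of miR-801 was 27.2, 26.0, 25.9 and 25.4 and that of miR-805 26.4, 25.2, 28.6 and 30.8; both are entries later removed from miRBase. Of the 16 miRNAs that rose, 9 were among the 32 members on card B and 7 among the 79 on card A, and with each card scaled on its own 15 rose and 30 fell.

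From promyelocytes to myelocytes the miRNAs of the granulocyte list rose. Of 110 members compared, 36 were higher and 27 lower by 2-fold or more, beside 30.1% higher and 24.4% lower of all 123 assays. The median change was 0.12. With a CT under 30 asked of both stages, 19 were higher and 21 lower of 81, and with a CT limit of 28 in either stage 17 were higher and 18 lower, so the excess of rises was not seen under either limit. Without scaling 60 were higher and 9 lower. The median CT as constant gave 21 higher and 39 lower, and the last 3 assays of card B gave 19 and 41. Under all 5 constants 19 were higher and 9 lower, and 18 and 8 of these also passed 2-fold in the same direction in whole cell RNA. Of the 19, only miR-139-5p, miR-150, miR-195, miR-223, miR-26b, miR-340-5p and miR-652 were under 30 in both stages. The others were compared through the myelocyte well alone, which favours a rise. Of the 9, miR-126-5p, miR-196b, miR-18a* and miR-200a* were compared through the promyelocyte well alone, which favours a fall.

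All 7 members of the granulocyte list rose in this step, with a median of 1.74 beside 0.12 over all members compared. For miR-139-3p and miR-142-5p the myelocyte well alone was under 30, which favours a rise, and the other 5 had a median of 1.74. Under all 5 constants 4 of the 7 passed 2-fold, namely miR-223, miR-26b and both arms of miR-139. The largest rises were those of the arms of miR-139, encoded in an intron of Pde2a. The CT of miR-139-5p was 27.1, 27.96, 22.5 and 21.7, a rise of 4.39, so that it was flat over the first step and ranked among the 10 lowest CT values of myelocytes and granulocytes. The CT of miR-139-3p was 40, 40, 29.6 and 29.6, undetermined in the first 2 stages, and its rise was 4.38 with an undetermined well set at 35. The CT of miR-142-3p, restricted to blood cells, was 23.6, 24.1, 22.0 and 22.2 and that of miR-142-5p 30.1, 31.0, 28.6 and 28.4, rises of 1.09 and 1.26. With each card scaled on its own, miR-142-3p was 0.95 higher and no longer past 2-fold. The CT of miR-26a was 23.4, 26.0, 23.5 and 22.8 and that of miR-26b 24.3, 27.2, 24.0 and 23.2; both returned from a dip in promyelocytes, and from LSK cells to granulocytes they differed by 0.60 and 1.21.

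Rises of this step outside that list were led by miR-135b and miR-200c. Of the miRNAs described next, miR-340-5p alone was under 30 in both stages of the step. The others were compared through the myelocyte well alone, which favours a rise. The CT of miR-135b was 32.5, 34.6, 29.3 and 26.4 and that of miR-135a, which shares its seed family, was 33.3, 32.5, 28.4 and 27.0. They rose by 4.22 and 3.07, and again by 2.83 and 1.33 into granulocytes, from CT values over 32 in LSK cells and promyelocytes to values under 28. The CT of miR-200c, best known from epithelial cells where it targets Zeb1 and Zeb2, was 32.4, 33.9, 28.9 and 28.1, a rise of 3.97. The CT of miR-22 on card B was 32.2, 32.8, 28.8 and 27.8, with rises of 2.94 and 1.01. The CT of miR-192 was 30.2, 31.6, 28.05 and 27.7 and that of miR-194 31.0, 33.2, 29.7 and 29.5, rises of 2.54 and 2.40; RefSeq places Mir194-2 and Mir192 together at chr19:6264658-6264877 (GRCm38.p6, plus strand). Both arms of miR-340 rose as well, miR-340-5p by 1.79 and miR-340-3p by 1.67, and the latter again by 1.23.

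Among the falls into myelocytes were those of several stem and progenitor miRNAs. Of the 6 stem and progenitor miRNAs compared, 4 fell and miR-10b rose, beside 24.4% lower and 30.1% higher of all assays. Their median was -2.17, and of the 3 under 30 in both stages 2 fell. Falls of 2-fold or more at both of the first steps were seen for 5 miRNAs, namely miR-126-3p, miR-126-5p, miR-155, miR-196b and miR-222. The first of these and miR-222 did not hold at both steps under all 5 constants. The CT of miR-20b was 25.8, 27.0, 28.4 and 28.8, a fall of 2.45, and that of miR-130b 27.8, 28.6, 29.9 and 29.9, a fall of 2.44. The other strand miR-130b*, on card B, had CT values of 27.1, 28.2, 29.2 and 29.4 and fell by 2.13. The CT of miR-378 was 24.0, 24.6, 25.5 and 26.3, a fall of 1.95, past 2-fold also with card B scaled on its own. Unscaled, its CT rose by less than 1 cycle.

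Of the 6 miRNAs of the miR-17-92 cluster, which drives proliferation and whose genes lie at chr14:115043684-115044496 (GRCm38.p6, plus strand), 4 were lower by 2-fold or more in myelocytes, beside the 24.4% lower of all assays, and the cluster median was -1.26. None of the 4 calls held under all 5 constants, and unscaled none of the 6 passed 2-fold. In the step before, its sign turned on the constant, with 0.58 scaled, -0.59 unscaled and 1.27 with the last 3 assays of card B. The CT of miR-17 was 21.0, 21.5, 21.8 and 21.9, of miR-20a 22.6, 22.8, 22.9 and 23.3 and of miR-92a 22.4, 23.6, 24.2 and 24.4, with falls of 1.38, 1.14 and 1.58. The CT of miR-19a was 23.0, 23.7, 23.4 and 23.2 and that of miR-19b 20.3, 21.2, 21.1 and 21.2, changes of -0.77 and -0.98, short of 2-fold. Unscaled, miR-19a and miR-19b were at 0.29 and 0.07, so the fall of the cluster is one against the mean of the other members. The pair miR-221 and miR-222, which target Kit, fell by 1.54 and 1.67; only miR-222, with CT values of 21.8, 24.4, 25 and 24.8, had also fallen from LSK cells, by 1.45, while miR-221 was at 26.9, 27.4, 27.9 and 27.5.

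From myelocytes to granulocytes the fewest members passed 2-fold, with the mean as constant. Of 109 members compared, 9 were higher and 12 lower by 2-fold or more, beside 11.7% higher and 10.8% lower of all 120 assays, and the quartiles of the change were -0.44 and 0.49. With a CT under 30 asked of both stages, 7 were higher and 7 lower of 98. The median CT as constant gave 15 higher and 4 lower, each card on its own 9 and 7, no scaling 12 and 12, and the last 3 assays of card B, whose mean fell by 1.59 cycles, 2 and 83. Under all 5 constants miR-135b and miR-467a were higher and miR-146a, miR-155, miR-31 and miR-805 lower, and these 6 also passed 2-fold in the same direction in whole cell RNA. Of the 6, miR-135b and miR-146a alone were under 30 in both stages. The others were compared only through the well in which they were high, which favours the call.

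The strongest change of this last step was a fall of miR-31, with CT values of 29.4, 33.0, 29.3 and 34.3, by 4.98; its change in whole cells was -5.54. The CT of miR-467a, from a repeated cluster in an intron of Sfmbt2, was 30.2, 31.0, 31.7 and 28.1, a rise of 3.58, and its other strand miR-467a* on card B, at 29.3, 30.8, 30.6 and 28.3, rose by 2.26. The other 9 named assays of that cluster stayed outside the CT limit, so it is read here through these and miR-466d-3p. The CT of miR-195, of the miR-15 seed family, was 27.2, 28.8, 26.1 and 24.3, a rise of 1.65 followed by one of 1.71. None of the 7 granulocyte miRNAs passed 2-fold in this step, their changes lying between -0.27 and 0.77. The inflammatory regulators miR-146a and miR-155 fell by 1.41 and 1.74, while miR-21, at 26.1, 27.8, 27.4 and 27.6, changed by -0.26. Smaller falls past 2-fold were those of miR-16*, miR-494, miR-30a*, miR-150, miR-149, miR-342-3p, miR-101b and miR-699, between -1.05 and -1.22.

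**Figure D3:**
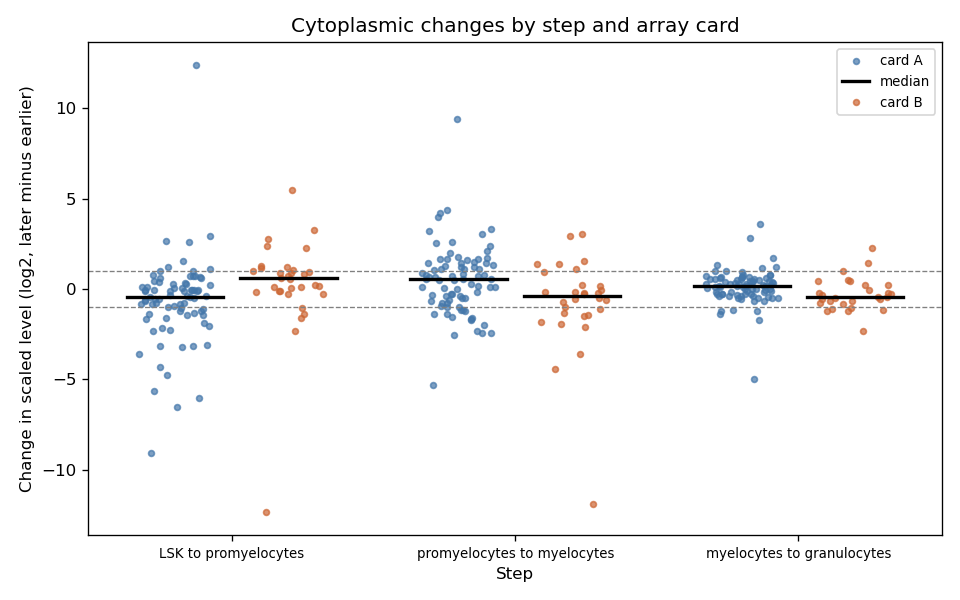
Change in scaled cytoplasmic level (log2, later minus earlier stage) of the members compared in each step, by array card, with the median of each card as a bar and dashed lines at 2-fold. In the first step the median of card A was -0.45 and that of card B 0.59, in the second 0.55 and -0.39, and in the third 0.18 and -0.44.

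Seed families differed in how far their members moved together. All 6 members of the miR-15 family, which limits cell cycle and survival genes such as Bcl2, rose from promyelocytes to myelocytes, by 1.21 to 1.98. Their median was 1.48, beside 0.12 over all members compared, and 30.1% of all 123 assays were higher by 2-fold or more. Under all 5 constants miR-15a and miR-195 passed 2-fold, but in whole cells miR-195 rose by 0.76, short of 2-fold. In this step 4 of the 6 were under 30 in both stages. The CT of miR-16 was 22.3, 23.2, 20.7 and 20.04, the second lowest of granulocytes, that of miR-15b 25.6, 26.7, 24.2 and 24.1 and that of miR-15a 30.4, 31.6, 28.6 and 29.02. From LSK cells to granulocytes miR-195 differed by 2.96, miR-16 by 2.28 and miR-322 by -0.03. So the family shared its rise into myelocytes and not its overall change. miR-503, with the family-like seed AGCAGCG in place of AGCAGCA, lies next to Mir322 on chromosome X and had CT values of 30.2, 31.5, 29.1 and 28.6.

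The 6 miRNAs with the seed of miR-17 split. The CT of miR-106a was 22.0, 22.4, 22.6 and 22.8, and its mature sequence differs from that of miR-17 in 1 of 23 bases, so the wells of these 2 may not be independent, which was not tested. Both changed alike, by -0.80 and -0.76 over all stages. miR-20b differed by -3.02, whereas miR-93, at 24.5, 24.9, 23.3 and 23.5, differed by 1.07 and miR-106b, at 25.3, 26.4, 25.5 and 25.3, by 0.13. RefSeq places the genes of miR-20b and miR-106a together on chromosome X and those of miR-93, miR-106b and miR-25 together on chromosome 5. The 5 miRNAs read from the chromosome 5 cluster, miR-93* and miR-106b* included, lay between -0.70 and 1.16 over all stages.

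The seed of miR-130 was shared by miRNAs that moved in opposite directions. The CT of miR-301a was 29.3, 29.7, 27.5 and 27.0, a difference of 2.37 from LSK cells to granulocytes, and that of miR-301b, of the same family, 28.7, 28.9, 27.0 and 26.7, a difference of 2.12. Against these, miR-130a differed by -6.01 and miR-130b by -2.02, although the mature miR-130a and miR-130b differ in 2 of 22 bases. A smaller split was that of miR-27a, at 28, 28.6, 27.0 and 26.7, and miR-27b, at 28.9, 28.9, 29.01 and 29.6, which differ in 1 of 21 bases: the first was 1.40 higher and the second changed by -0.66.

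**Figure D4:**
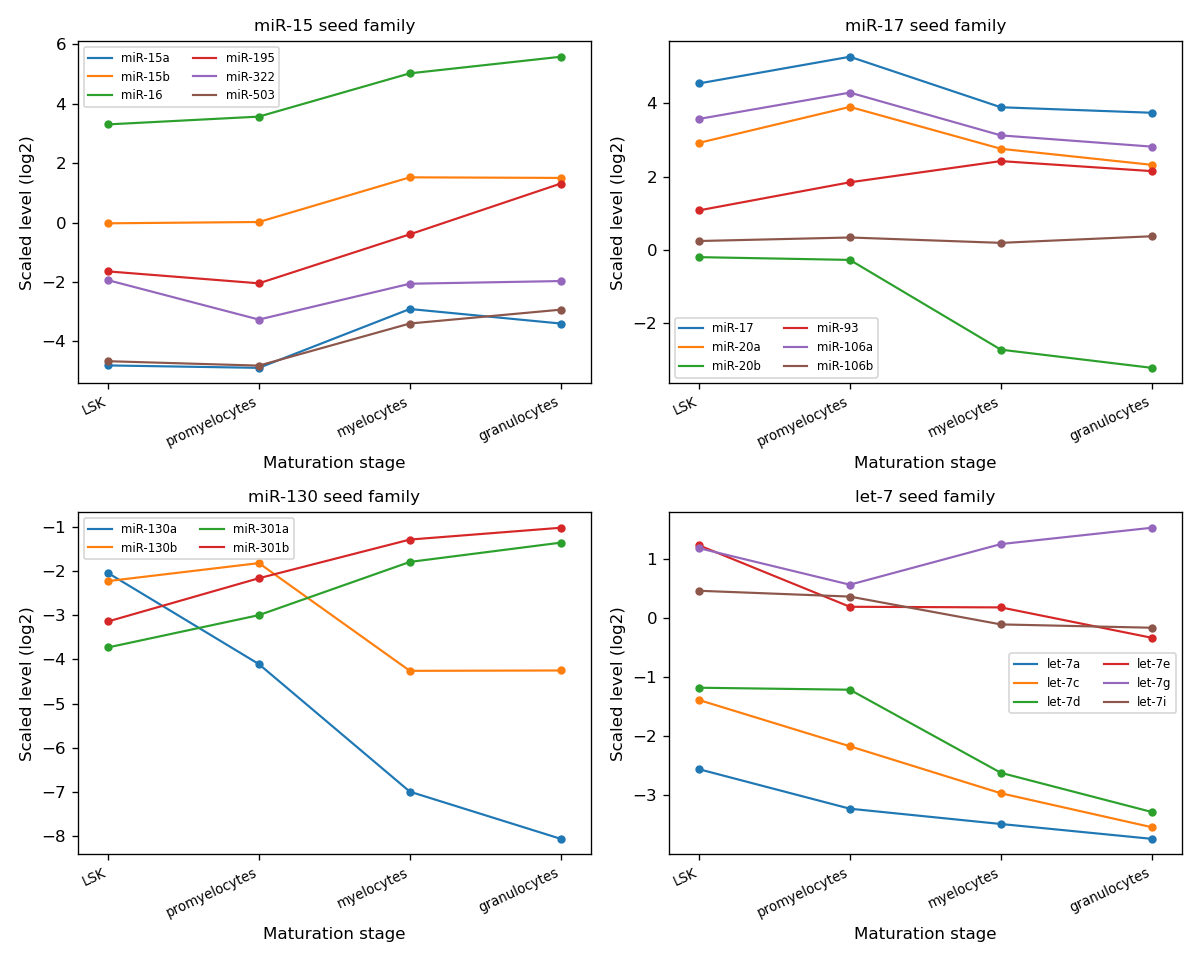
Scaled cytoplasmic level (log2) against stage for the members of 4 seed families, 1 sample per stage, with a separate vertical scale in each panel. The 6 miR-15 members rise together from promyelocytes to myelocytes, the miR-17 members part with miR-20b at the bottom, the miR-130 members cross, and all let-7 members but let-7g end below their LSK level.

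Among the let-7 miRNAs, which mark differentiation and are held back by Lin28, 6 were members. The CT of let-7c was 26.9, 28.9, 28.6 and 29.2 and that of let-7d 26.7, 27.9, 28.3 and 28.9, differences of -2.15 and -2.10 from LSK cells to granulocytes. The CT of let-7g was 24.4, 26.2, 24.4 and 24.1, a difference of 0.35, while let-7a and let-7i stood at -1.18 and -0.63. Against the mean no step moved more than 1 of the 6 past 2-fold, but unscaled all 6 passed it in the first step, with a list median of -1.81 against -0.64 scaled. With the last 3 assays of card B that median was 0.04. In whole cell RNA this step gave 0.87 for let-7a, 0.19 for let-7c, 0.78 for let-7d, 0.51 for let-7g and 1.13 for let-7i, but -0.33 for let-7e. The study reports let-7 family members as lower in LSK cells than in promyelocytes. The 5 members of the miR-30 family lay between -1.10 and -0.55 in the first step and between 0.29 and 0.77 in the second. Of these miR-30a alone passed 2-fold, in the first step, a call lost with the median CT, with each card on its own and with the last 3 assays of card B, while unscaled all 5 passed 2-fold in both steps. In the last step they parted, between -0.47 for miR-30d and 0.69 for miR-30b, and from LSK cells to granulocytes they lay between -0.96 and 0.85. The miR-29 pair, whose targets include Dnmt3 and collagen genes, had CT values of 23.0, 25.1, 23.9 and 23.4 for miR-29a and 25.5, 28.1, 26.5 and 25.8 for miR-29c, and ended at -0.37 and -0.17. miR-101a and miR-101b, which target Ezh2, ended at -2.48 and -2.37, with CT values of 29.1, 30.2, 31.1 and 31.6 and 26.2, 27.1, 27.6 and 28.6.

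For 23 precursors both strands were members. Both strands were compared, with a CT under 30 in either stage, for 14 pairs in the first step, 19 in the second and 19 in the last. Their changes differed by under 1 cycle for 10, 12 and 15 of these pairs and had one sign for 13, 13 and 8. In 18 of the 23 pairs the strands were on different cards, so a strand difference and the card cannot be told apart there. The strands of miR-126 and of miR-340, each pair on card A and compared throughout, stayed within 1 cycle of each other in every step. The widest gap among compared pairs not resting on an undetermined well was in the second step, where miR-135a rose by 3.07 and miR-135a*, at 27.7, 28.1, 27.6 and 27.6, changed by -0.56, so that miR-135a* minus miR-135a was -3.62. In the first step miR-20a*, at 28.1, 30.6, 30.4 and 31.1, moved by -2.35 against miR-20a. Both of these pairs were split over the cards. RefSeq lists 2 genes for miR-135a and 1 for miR-135a*, so a difference between strands and one between genes cannot be told apart there.

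Whole cell RNA of the same stages gives a second reading from other RNA samples, scaled in the same way on the 73 members under 30 in all 4 whole cell samples. Across miRNAs under 40 in all 4 wells of a step, cytoplasmic and whole cell changes had a Pearson correlation of 0.81 over 105 miRNAs in the first step, 0.83 over 108 in the second and 0.70 over 109 in the third; the miRNAs of a sample share its RNA and its 2 cards, and no p-value is given. The median absolute difference between the 2 changes was 0.55, 0.39 and 0.36 cycles in the 3 steps, and 90% of the differences were under 1.54, 1.31 and 1.07. Well error and true differences between cytoplasm and whole cell cannot be told apart in these values. The sign was shared by 79 of the 105, 98 of the 108 and 73 of the 109 miRNAs. Of the calls, 10 of the 16 higher and 22 of the 31 lower also passed 2-fold in the same direction in whole cells in the first step, 30 of 36 and 21 of 27 in the second, and 3 of 9 and 6 of 12 in the last. Past 2-fold in both fractions were 34, 51 and 11 miRNAs, of which 32, 51 and 9 moved in one direction.

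**Figure D5:**
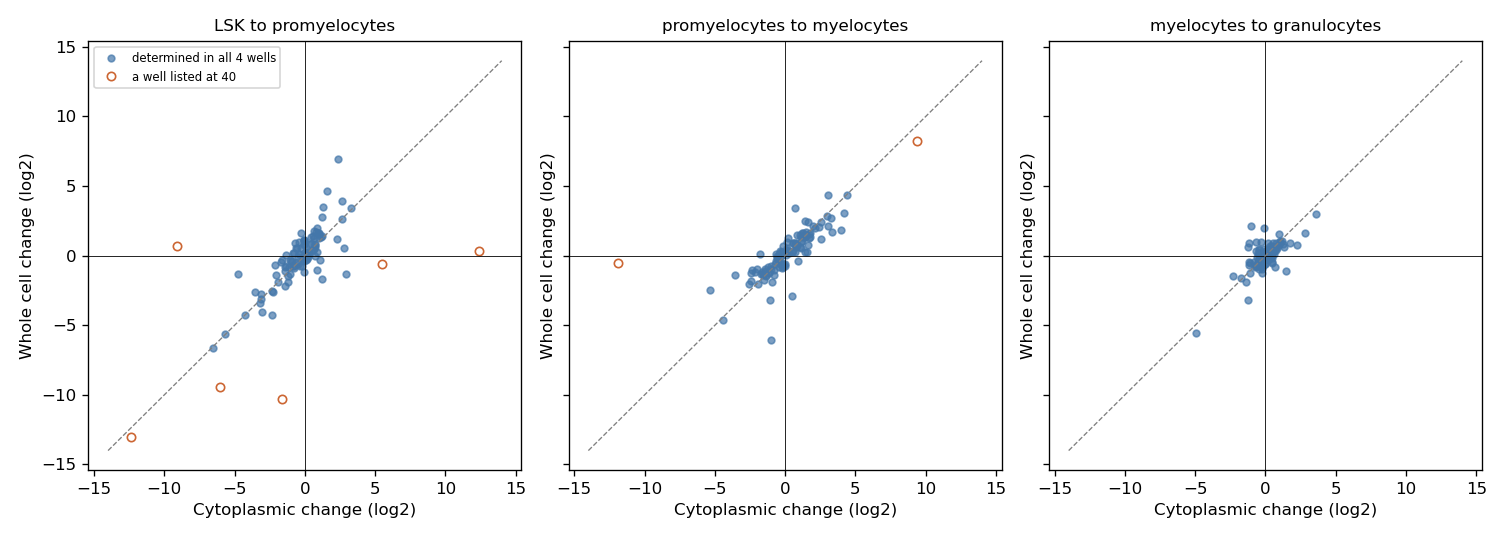
Cytoplasmic change (horizontal axis, log2) against whole cell change (vertical axis, log2) of the members compared in each step, with the line of equal change dashed and open points where at least 1 of the 4 wells was listed at 40. Most points lie along the line, and those far from it in the first step include open points.

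Past 2-fold in both fractions, 4 changes ran against the whole cell reading. In the first step miR-532-5p was 2.92 in cytoplasm and -1.32 in whole cells, and miR-674* 1.18 and -1.69. In the last step miR-699 was -1.05 in cytoplasm and 2.13 in whole cells, and miR-706 1.46 and -1.14. Of one sign but unlike in size were the changes of miR-494, at 30.4, 29.99, 28.4 and 29.6, which rose by 1.57 in cytoplasm and 4.66 in whole cells in the first step, and of miR-801, with 2.36 and 6.92. The dip of miR-10b in promyelocytes was -4.76 in cytoplasm and -1.35 in whole cells. Of the 128 members, 121 were also under 30 in whole cell RNA and 64 in nuclear RNA, and 8 named assays met the limit in whole cell but not in cytoplasmic RNA.

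Of the 128 members, 10 had an undetermined cytoplasmic well, and these single wells set the largest apparent changes. The CT of miR-574-3p was 40, 28.8, 27.6 and 26.4, a rise of 7.39 with the LSK well set at 35, but its whole cell CT was 29.4, 28.5, 27.6 and 26.1 and its whole cell change 0.31. The CT of miR-532-3p was 40, 31.6, 29.8 and 30.1, with 30.04 in whole LSK cells. The CT of miR-34a, which p53 induces, was 29.8, 40, 32.8 and 32.7, and in whole cells 33.1, 31.8, 30.8 and 31.8, so the fall into promyelocytes was seen in cytoplasm alone. The CT of miR-365 was 31.1, 40, 30.4 and 29.4, and in whole cells 34.0, 33.3, 30.4 and 28.5. The CT of miR-466d-3p was 26.5, 40, 40 and 40, and it fell by 7.35 with the promyelocyte well set at 35, whereas whole granulocytes read it at 25.6. miR-200a*, at 33.5, 29.2, 40 and 40, was listed at 40 in whole promyelocytes. Only for miR-139-3p were the undetermined cytoplasmic wells also undetermined in whole cells in every stage concerned, with whole cell CT values of 40, 40, 31.3 and 28.9.

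The steadiest miRNAs stayed within a narrow band against the mean of the members. Unscaled, 8 of the 10 named here passed 2-fold in the first step, all but miR-425 and miR-709. miR-106b spanned 0.18 on the log2 scale, with CT values of 25.3, 26.4, 25.5 and 25.3, miR-30e* 0.23, miR-25 0.35, miR-186 0.42 and miR-191 0.44. miR-103, miR-425, let-7i, miR-709 and miR-24 followed with spans up to 0.69. In whole cell RNA 3 of these 10 passed 2-fold in the first step, with 1.08 for miR-25, 1.13 for let-7i and -1.15 for miR-186, and miR-103 was just short of it in the second. The largest whole cell changes of miR-425 and miR-30e* were 0.35 and 0.34. In all, 18 of the 118 members read in every sample stayed under a 2-fold span, and 39 of the 128 passed 2-fold at no step in which they were compared.

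The miRNAs with the lowest CT values changed places with maturation. In LSK cells the earliest were miR-19b at 20.3, miR-17 at 21.02, miR-709 at 21.05, miR-191 at 21.6 and miR-222 at 21.8. In granulocytes they were miR-223 at 16.8, miR-16 at 20.04, miR-709 at 20.4, miR-720 at 21.1 and miR-19b at 21.2. Assays differ in efficiency, so these orders compare wells and not molecule numbers. miR-223 stood sixth in LSK cells and first afterwards, while miR-222 left the 10 earliest after LSK cells.

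Lists of miRNAs known from other cells were examined for the content of the sorted samples. Of the stromal and muscle list 6 were named and none was a member, with CT values from 32.4 to 40 over the 4 samples. The only named erythroid miRNA, miR-486, was at 40, 40, 40 and 33.6. Of the lymphoid list miR-150 was above, and miR-181a was at 27.5, 29.5, 29.5 and 29.8, lowest in CT in LSK cells and -2.25 by granulocytes. Of the epithelial list miR-200c and miR-203 moved in opposite directions as given above, and miR-200b, at 31.2, 33.5, 33.0 and 32.2, and miR-429, at 33.4, 35.01, 35.7 and 34.3, did not reach the limit. The part of other cell types in these results was not tested.

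The remaining lists were small. Of the 6 miRNAs the study followed as nuclear candidates, all were members, and each passed 2-fold in the cytoplasm in at most 1 step. The CT of miR-709 was 21.0, 21.6, 20.7 and 20.4, that of miR-690 24.1, 24.1, 23.5 and 23.0 and that of miR-706 28.9, 29.1, 28.7 and 27.2. Since the study chose them on these samples, their cytoplasmic levels are given as a description. Of the entries later removed from miRBase 4 were members, miR-699, at 25.8, 26.1, 26.2 and 27.2, miR-720, at 22.4, 22.6, 20.7 and 21.1, miR-801 and miR-805. Of these 4, 2 rose and none fell into promyelocytes, beside 13.8% higher and 26.9% lower of all assays. Into myelocytes 3 fell, beside 24.4% lower of all assays. Of these falls that of miR-805 alone held under all 5 constants, and unscaled the changes were -0.031 for miR-699 and 0.036 for miR-801. In the miR-23, miR-24 and miR-27 clusters miR-24, at 22.9, 24.4, 23.3 and 22.6, was steady against the mean of the other members, with unscaled changes of -1.48 and 1.17 in the first steps, and miR-24-2* on card B, at 29.02, 30.4, 27.9 and 28.5, rose by 1.40 into myelocytes. In the miR-148 family miR-148a, at 28.3, 28.3, 27.8 and 27.4, was 1.13 higher in the first step but -0.04 unscaled, while miR-152, at 29.6, 32.9, 32.7 and 40, fell by 2.13. Other rises of the second step, of which that of miR-652 alone held under all 5 constants, were those of miR-652, at 26.5, 27.7, 25.02 and 24.6, by 1.66, miR-140, at 24.9, 26.5, 24.3 and 23.7, by 1.12, and miR-484, at 24.0, 25.3, 23.1 and 22.5, by 1.07. Over the 92, 91 and 88 compared members with a sequence, Spearman's rho between GC content and change was 0.15, -0.08 and -0.16.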

How the data were processed

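Cytoplasmic RNA of sorted LSK cells, promyelocytes, myelocytes and granulocytes was analysed, with whole cell RNA as a second reading. Per the labels, the authors reverse transcribed 100 ng of RNA per sample with Megaplex pools, ran TaqMan rodent array cards A and B on an ABI instrument and deposited raw CT values, with wells that gave no product listed at 40. The study describes its fraction data by cell equivalents, which these labels do not mention. All 12 sample columns were mapped by their titles.

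Assays carry numbers and no names in the deposited data. Their card is not labelled either, and was inferred from the order of the assays and the number of decimals of their CT values. A name was given where the cytoplasmic and nuclear CT matched the study's printed CT table within 0.0005 cycles (247 assays), or else where whole cell differences matched its printed changes within 0.002 (23 assays), each match being unique. Only names were taken from there. Names of the study's card version were mapped by hand to RefSeq mature strands, and 106 of 128 had an entry.

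A scaled level is the mean CT of the 76 members under 30 in all 4 cytoplasmic samples minus the CT of the assay. With 1 sample per group no test was made, and calls are changes of 2-fold or more (1 cycle). In a bound, undetermined wells were set at 35. The precision of a CT is unknown, since each was read in 1 well. The procedure was run on simulated data made from the LSK readings, with an assumed well error and no card offset. That run checked the computation and cannot give the error of the calls. The miRNAs named are the 10 largest rises and falls of each step, those with an undetermined well on one side, the 10 widest and narrowest spans, the 10 lowest CT values per stage, list members and both strands of a precursor. The members, the 27 lists and the alternatives were chosen with earlier results of these data known. Alternatives changed the scaling constant, the CT limit, the fold limit, the value of undetermined wells, the fold per cycle and the assays counted; the calls made under all 5 constants were counted after seeing the data. Computations used Python 3.11.15, numpy 2.4.6, pandas 2.3.3 and matplotlib 3.10.9.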

Additional observations from a re-analysis of the deposited data

Results flagged for a closer look

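In 4 cases the cytoplasmic and the whole cell sample of a step moved in opposite directions by 2-fold or more. From LSK cells to promyelocytes miR-532-5p was 2.92 in cytoplasm and -1.32 in whole cells, and miR-674* 1.18 and -1.69. From myelocytes to granulocytes miR-699 was -1.05 in cytoplasm and 2.13 in whole cells, and miR-706 1.46 and -1.14. There was 1 sample on each side, so these differences were not tested. Data outside the comparisons also held signal: 20 assays that could not be named had a cytoplasmic CT under 30, 14 of them on card B and 6 on card A, with 18.1 as the lowest CT, and 8 were under 30 in all 4 stages.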

How the results depend on the processing

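Of 72 alternative counts, 42 stayed within 1.5 times the reported one. No paired analysis was possible because the labels give 1 sample per group and no replicate numbers. Without scaling, 9 miRNAs were higher and 71 lower in the first step and 60 and 9 in the second, and 6 were highest in promyelocytes. With the last 3 assays of card B as constant, the higher and lower counts were 35 and 18, 19 and 41, and 2 and 83 in the 3 steps, and 54, 39 and 2 miRNAs were highest in promyelocytes, myelocytes and granulocytes. With the median CT, 32 were higher in the first step, 21 in the second and 15 in the last, 4 were lower in the last, and 43 and 9 were highest in promyelocytes and myelocytes. With each card on its own, 7 were lower in the last step. With a CT limit of 28, 6, 17 and 5 were higher in the first, higher in the second and lower in the last step, and with a limit of 32, 20 were higher in the last. With the limit in both stages, 13 were lower in the first, 19 higher in the second and 7 lower in the last. At 1.5-fold 32 were higher in the first and 22 in the last. At 3-fold 9, 20 and 4 were higher in the 3 steps, and 14 and 3 lower in the second and last. Over all assays 14 were higher in the last. Of the changes past 2-fold, signs turned without scaling for miR-148a (-0.0405) and miR-425* (-0.13) in the first step and for miR-181a (0.0506), miR-801 (0.036) and the median of the removed miRBase entries (0.0025) in the second. They turned with the last 3 assays of card B in the last step for miR-135a (-0.21), miR-340-3p (-0.31), miR-574-3p (-0.38), miR-22 (-0.53) and miR-706 (-0.0803). List medians under 2-fold turned more often, in the first step without scaling among others those of the granulocyte miRNAs (-0.87), the miR-17 family (-0.45), the miR-130 family (-0.60) and the miR-17-92 cluster (-0.59). Each CT comes from 1 well, so the error of a call is unknown.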
